A study of Mus musculus with 2 samples.

Results

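Of the 4409 GATA4 occupied sites (OS) on which both peak callers met in whole adult mouse liver, 1102 lay beside genes rather than in them (24.99%, Wilson 95% interval 23.7 to 26.3). They are called gene-flanking OS here. An OS was counted among them when its midpoint was outside the body of every protein-coding gene and over 1 kb but at most 50 kb from the nearest transcription start site (TSS) of a protein-coding transcript. The other OS were 651 TSS-proximal OS within 1 kb of a TSS, 1953 gene-body OS farther from a TSS but within a gene, and 703 distal OS outside genes and over 50 kb away. The rule used position only, and no motif, base composition or list order entered it. Base composition can still go with distance from a TSS whether or not GATA4 is bound.

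GATA4 ChIP and input DNA came from livers of C57BL/6 x Sv129 mice with a postnatal age of 2 to 3 months per the labels (the study's methods give a somewhat later range), and the GATA4 C-20 antibody was used for the ChIP sample alone. Each biological replicate held whole livers of a pair of mice, and the deposited peaks cover the replicates together, so there is no value per replicate and OS of 1 pooled sample are the units of every test. Whole liver holds hepatocytes, sinusoidal endothelial cells, Kupffer cells, stellate cells and bile duct cells, and the peak lists do not tell in which of them GATA4 sat. Weak occupancy in many cells and strong occupancy in few cells cannot be told apart. All peaks carry a score of 1000, so the number of an OS in the list is the only order the lists give, and they do not state what the numbering follows.

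GATA4 is a zinc finger transcription factor that binds the sequence WGATAR, where W is A or T and R is A or G. It takes part in heart and liver development, and in the adult liver it has been described in hepatocytes and in sinusoidal endothelial cells. Sequence on either side of a gene can hold enhancers, stretches that raise transcription from a promoter at a distance, and such elements usually carry motifs of several factors.

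The leading OS of the list give a picture of what these sites look like. The first 10 gene-flanking OS were numbers 11 to 33 of the common list, and 8 of them held WGATAR. Each line shows 60 bases of the plus strand of mm9 around the WGATAR nearest to the peak midpoint, with every WGATAR of the stretch in capitals on either strand, so that a motif of the minus strand reads as its reverse complement.
Gm1968 site 11 (chr16:29946234-29946293): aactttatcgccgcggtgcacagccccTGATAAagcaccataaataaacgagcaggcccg
Ahsg site 14 (chr16:22881671-22881730): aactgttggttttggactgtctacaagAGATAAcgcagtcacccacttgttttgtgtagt
Med26 site 16 (chr8:75073610-75073669): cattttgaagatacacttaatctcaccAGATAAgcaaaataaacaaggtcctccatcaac
Ints10 site 19 (chr8:71370140-71370199): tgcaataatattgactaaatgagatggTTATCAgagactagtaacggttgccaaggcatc
Gm10293 site 23 (chr3:52457086-52457145): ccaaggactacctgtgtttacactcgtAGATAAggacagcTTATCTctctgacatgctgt
Unkl site 24 (chr17:25321347-25321406): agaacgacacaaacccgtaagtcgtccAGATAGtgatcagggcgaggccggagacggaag
Ephb4 site 30 (chr5:137790064-137790123): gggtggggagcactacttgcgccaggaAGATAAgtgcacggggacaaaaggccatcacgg
Pard6b site 33 (chr2:167875952-167876011): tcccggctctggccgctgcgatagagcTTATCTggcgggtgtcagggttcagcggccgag
Number 13, 6646 bp upstream of Fst, is shown whole because it stood this early in the list without a WGATAR. The gene encodes follistatin, a secreted inhibitor of activins.
Fst site 13 (chr13:115255672-115255937): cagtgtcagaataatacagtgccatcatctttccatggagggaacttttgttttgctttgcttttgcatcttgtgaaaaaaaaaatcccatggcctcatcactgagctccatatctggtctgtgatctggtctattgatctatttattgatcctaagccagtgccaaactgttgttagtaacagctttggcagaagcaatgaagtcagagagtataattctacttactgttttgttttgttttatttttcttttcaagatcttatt
Its 266 bases held 1 GATA core and no CpG. Number 17, 3456 bp upstream of the retinol dehydrogenase gene Rdh1, also lacked WGATAR and held 4 GATA cores.

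Distances of these leading OS spanned most of the allowed range. The OS of Ephb4, an ephrin receptor gene of venous endothelium, was 1281 bp upstream of the TSS, and its MACS2 peak was number 6 of that list and 2737 bp wide. The OS of Med26, a Mediator subunit, was 1439 bp upstream and that of Unkl 3968 bp upstream. Ahsg, the gene of the plasma protein fetuin-A, had its OS 10406 bp upstream, although the body of Dnajb11 was nearer, 2002 bp to the left. The OS nearest to Gm1968 lay 16204 bp downstream of its TSS inside a lincRNA, and that of Pard6b, a cell polarity gene, 30500 bp upstream. Number 19 was assigned to Ints10, whose TSS was 25597 bp away, with Lpl, the gene of lipoprotein lipase, 34208 bp to the other side. The farthest of the 10 was 40402 bp downstream of the TSS of Gm10293. The genes next to these OS thus ranged from a Mediator subunit to a plasma protein, and the nearest TSS did not always belong to the nearest gene body.

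GATA4 OS were about as dense beside genes as within them. The gene-flanking sequence amounted to 545 Mb of known bases and held 2.02 OS per Mb (exact Poisson 95% interval 1.90 to 2.14). Gene bodies held 2.05 per Mb, sequence within 1 kb of a TSS 11.05, and distal sequence 0.702. By distance, the median of the 1102 OS was 14936 bp from the TSS, and the central portion ran from 6691 to 28658 bp between the quartiles. The OS nearest to the limits were those of Hsd17b2 at 1002 bp (number 4387) and Pkdcc at 1014 bp (number 391) just inside 1 kb, and of Rbms1 at 49993 bp and Gpc5 at 49876 bp just inside 50 kb. Left out by a narrow margin were OS 974 bp from Mtap7d1, 989 bp from A530016L24Rik, 50024 bp from 1700025G04Rik and 50031 bp from Amotl2.

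More OS lay upstream than downstream of the nearest TSS. There were 811 upstream (73.6%) and 291 downstream (26.4%), but much of the sequence outside genes is upstream by this definition, and the densities differed less, at 2.15 per Mb (2.01 to 2.31) and 1.73 per Mb (1.53 to 1.94). Their ratio was 1.25 (95% interval 1.09 to 1.43). Upstream density was highest next to the TSS. From 1 to 2 kb upstream the density was 4.21 per Mb (3.30 to 5.30, 73 OS), and from 2 to 5 kb it was 2.72 (2.27 to 3.23, 128 OS). At 5 to 10 kb it was 2.15 upstream and 2.21 downstream, with intervals that overlapped widely. In the outermost stretch, from 40 to 50 kb, it was 1.72 (1.33 to 2.18) upstream and 1.45 (1.03 to 1.99) downstream. Downstream within 1 to 2 kb only 2 OS were found in 2.49 Mb, which leaves 0.805 per Mb with an interval from 0.0974 to 2.91.

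**Figure D1:**
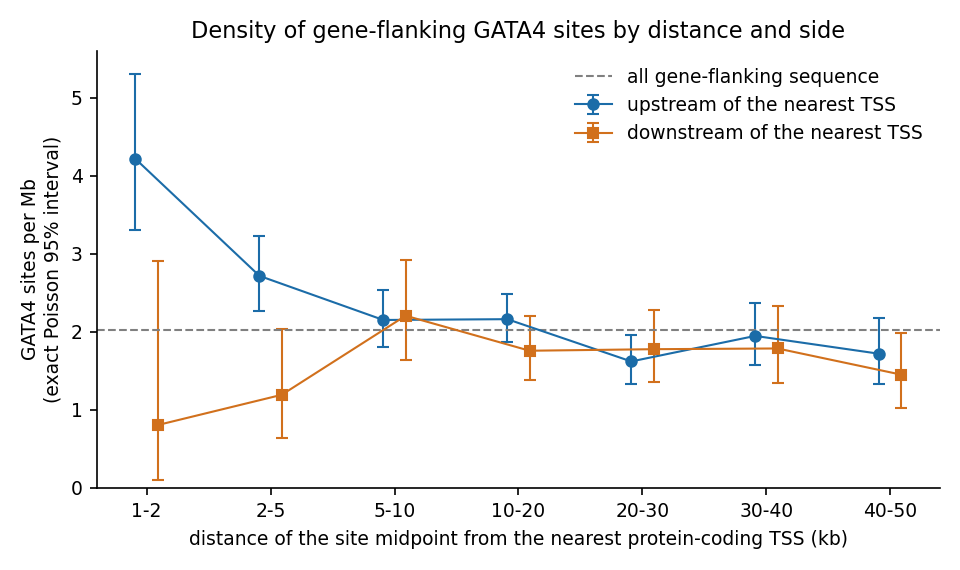
GATA4 OS per Mb of gene-flanking sequence (y axis) in stretches of distance from the nearest protein-coding TSS in kb (x axis), upstream (circles) and downstream (squares), with exact Poisson 95% intervals. The dashed line is the density over all gene-flanking sequence, 2.02 per Mb, and the upstream value at 1 to 2 kb, 4.21 per Mb, stands above it with its whole interval.

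The genes on either side of an OS pointed the same way along the chromosome for 588 OS (53.4%). Another 356 OS (32.3%) lay between divergent genes, 151 (13.7%) between convergent genes, and 7 had a gene on one side only. How gene-flanking sequence itself divides among these arrangements was not counted. The rule asks for a TSS within 50 kb, and divergent genes have their starts at both ends of the gap while convergent genes have them at neither. The nearest gene body was that of the gene with the nearest TSS for 939 OS (85.2%), a count that left out the 7 with a gene on one side only. For the others with a gene on both sides, the name given to an OS depends on whether bodies or starts are counted. A non-coding gene covered 76 OS (6.90%), 44 of them lincRNAs, and 33 OS (2.99%) were within 1 kb of the TSS of a transcript that is not protein-coding. The same shares over all gene-flanking sequence were not counted either. Gene-flanking OS were found on all 20 chromosomes that carried common OS, with 90 on chromosome 11 and 9 on the X chromosome at the extremes.

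WGATAR was present in 923 of the 1102 gene-flanking OS (83.8%, Wilson 95% interval 81.5 to 85.8), against 82.9% of all common OS. In windows of the same width 5 kb to the right, not matched for GC or class of position, it was present in 31.6%. TSS-proximal OS held it less often (72.2%), a difference of 11.6 percentage points (7.54 to 15.7, Fisher's exact test, Benjamini-Hochberg adjusted p = 3.35e-08 over 3 classes). Gene-body OS (85.6%) differed by -1.80 points (-4.54 to 0.822, Fisher's exact test, adjusted p = 0.283) and distal OS (84.1%) by -0.311 points (-3.72 to 3.24, adjusted p = 0.896), neither past the threshold. A single WGATAR was found in 508 gene-flanking OS, 2 in 302, and 3 or more in 113. Over all 4409 common OS these counts were 2126, 1099 and 430. A GATA core of any context was in 1034 gene-flanking OS (93.8%, against 93.4% of all common OS and 56.6% of the windows), and 68 had none.

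Among the 4 forms of WGATAR the commonest was AGATAA with 44.8% of the 1489 matches in gene-flanking OS, then TGATAA with 26.8%, AGATAG with 18.1% and TGATAG with 10.3%. In the windows 5 kb away these forms made up 28.0%, 25.6%, 26.3% and 20.1% of 457 matches. The base after the motif was G in 42.6% of matches in the OS and in 20.4% of those in windows, and the base before it was C in 37.7% and 24.7%. Both preferences were nearly the same in the other common OS, where G followed in 42.0% and C preceded in 37.2% of 4245 matches. The lines printed for Med26, Gm10293, Ephb4 and Pard6b show a G directly after the motif as read on its own strand.

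WGATAR gathered at the centre of the peaks. The match closest to the midpoint was a median of 17 bp from it, and 844 OS (76.6% of the 1102) had a match within 50 bp. In bins of 20 bp the matches numbered 25.2 and 26.2 per 100 OS on either side of the midpoint and 3.902 at the left end of the plotted stretch. The 566 pairs of neighbouring matches within an OS were a median of 50 bp apart, and in 50.5% of them both matches had the same strand. A gap of 5 bp occurred in 17 pairs and one of 4 bp in 21, of which 11 remained outside the OS with the most matches.

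**Figure D2:**
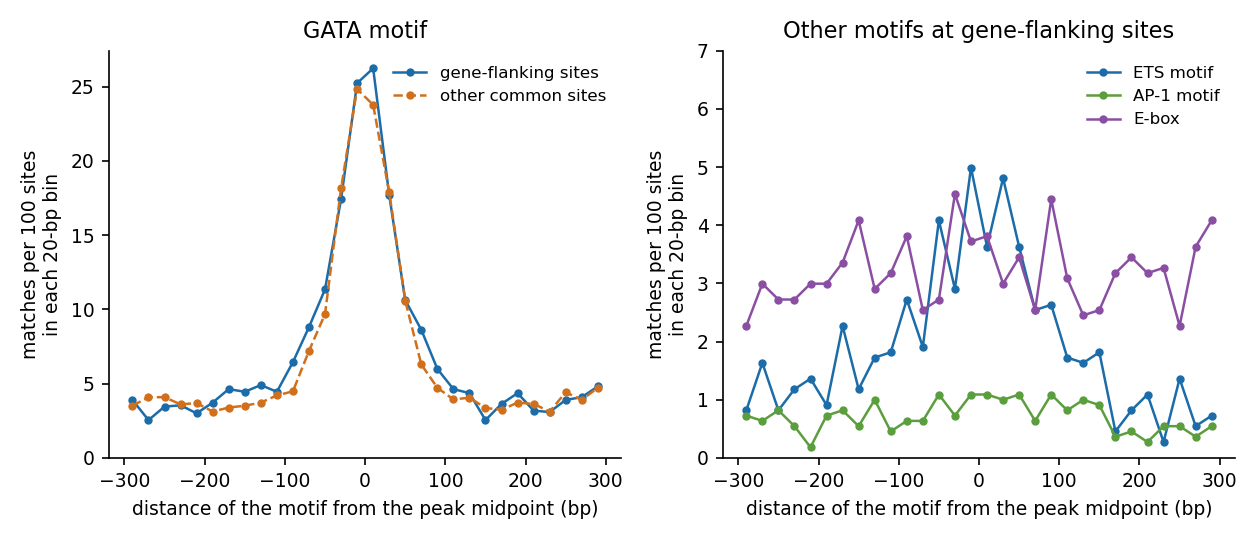
Left, WGATAR matches per 100 OS in bins of 20 bp (y axis) by distance from the peak midpoint in bp (x axis), for the 1102 gene-flanking OS (solid) and the other common OS (dashed). Right, the same for the ETS, AP-1 and E-box motifs at gene-flanking OS on another scale. The GATA curves rise together to about the midpoint, the ETS curve has a lower and broader rise, and the E-box curve has no single rise.

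The OS with the most matches was number 2392, 17031 bp upstream of Insig2, which encodes a protein that retains the sterol sensor SCAP in the endoplasmic reticulum. It held 15 WGATAR and 18 GATA cores in 320 bp. All other OS of the common list held fewer.

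The first gene-flanking OS without any GATA core was number 99, 13220 bp upstream of Fam169a, and number 67 in the MACS2 list. It is shown whole to let its sequence be compared with the lines above, and it holds an ETS motif of the form ccggaag.
Fam169a site 99 (chr13:97823881-97824163): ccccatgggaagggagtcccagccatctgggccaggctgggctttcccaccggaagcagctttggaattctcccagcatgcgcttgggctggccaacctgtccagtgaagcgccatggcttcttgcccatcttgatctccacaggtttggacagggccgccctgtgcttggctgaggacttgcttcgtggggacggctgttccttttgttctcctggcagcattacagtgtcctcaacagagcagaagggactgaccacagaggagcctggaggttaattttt
The 179 OS without WGATAR stood later in the list (mean number 2586 ± 1167, SD) than the 923 with it (1996 ± 1248). They were richer in GC (52.5% against 48.7%), and 31.8% of them held an ETS motif (25.5 to 39.0) against 26.9% (24.1 to 29.8). The share with WGATAR was 92.1% among the 304 gene-flanking OS that stood at number 1103 or earlier and 74.1% among the 232 of the last 1102. Along the distance axis it was lowest at 5 to 10 kb (75.4%, 68.8 to 81.0) and highest at 30 to 40 kb (88.7%, 82.6 to 92.8), with no steady course in between. Upstream OS held WGATAR in 81.6% (78.8 to 84.1) and downstream OS in 89.7% (85.7 to 92.7), and this difference was not tested.

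Gene-flanking OS made up 27.6% (25.01 to 30.3) of the OS up to number 1103 and 21.1% (18.7 to 23.6) of the last 1102. Their mean number was 2092 ± 1253 (SD). It differed by -257 from that of TSS-proximal OS (95% interval -380 to -134, permutation test, adjusted p = 0.00012) and by -156 from that of gene-body OS (-250 to -63.0, adjusted p = 0.00175), a minus sign meaning earlier in the list. From that of distal OS it differed by -37.0 (-156 to 82.2, permutation test, adjusted p = 0.543). These differences were small beside the spread within each class. Against TSS-proximal OS the difference was not seen in the numbers of the MACS2 list, where gene-flanking OS were 44.4 later (permutation test, adjusted p = 0.538). Among peaks of 320 bp, the commonest width, with 252 gene-flanking OS, it was -134 (permutation test, adjusted p = 0.142), and that from gene-body OS was -41.5 (adjusted p = 0.698).

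Gene-flanking OS were close to gene-body OS in their sequence. Their GC content in 200 bp around the midpoint was 49.3% ± 6.49 (SD), against 48.9% in gene-body OS (difference 0.406 points, -0.0549 to 0.868, permutation test, adjusted p = 0.0766). It differed by -8.003 points from that of TSS-proximal OS (-8.78 to -7.23) and by 1.88 points from that of distal OS (1.29 to 2.48), both with an adjusted p of 1.5e-05 from the smallest p that 100000 resamples allow. GC content of unbound sequence in these classes was not measured, so the part of position alone was not tested. CpG dinucleotides numbered 1.78 per 100 bp, against 5.64 at TSS-proximal, 1.54 at gene-body and 1.49 at distal OS. Peak widths averaged 206 bp and did not pass the test against any class (permutation test, adjusted p from 0.284 to 0.442). The widths of the MACS2 peaks at the same OS did, at -159 bp against TSS-proximal (permutation test, adjusted p = 3e-05) and, with the direction turned, 23.4 bp against gene-body OS (adjusted p = 0.0382). Another common OS lay within 10 kb of 225 gene-flanking OS (20.4%, against 19.8% of all common OS), 5.98 points more than among TSS-proximal OS (2.29 to 9.49, Fisher's exact test, adjusted p = 0.00504). At a reach of 5 kb that excess was 3.08 points (Fisher's exact test, adjusted p = 0.17). The share was 20.4% among gene-body OS (interval of the difference -2.94 to 3.01) and 22.0% among distal OS (-5.57 to 2.19). Of 1194 SPP peaks that met the same rule of position, 92.3% met a MACS2 peak, against 94.9% of TSS-proximal SPP peaks (difference -2.60 points, -4.78 to -0.246, Fisher's exact test, adjusted p = 0.106). With a reciprocal overlap of at least 50% the difference turned to 5.57 points and passed (Fisher's exact test, adjusted p = 0.00369).

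Motifs of other liver and blood vessel factors were searched on both strands in 200 bp around the midpoint. The windows set beside them lay a fixed 5 kb to the right, were not matched for GC and could fall in a gene or near a TSS. The motif of ETS factors (CAGGAAG or CCGGAAG), which are known from endothelial and blood cells, was in 305 gene-flanking OS (27.7%), against 9.17% of windows 5 kb away. TSS-proximal, gene-body and distal OS held it in 26.4%, 26.6% and 26.5%, and none of the differences from gene-flanking OS passed the test. Its matches reached 4.99 per 100 OS in a 20-bp bin beside the midpoint. The motif of nuclear factor I (TTGGCA) was in 17.4% against 9.80% of windows, and that of C/EBP factors (TTNNGCAA), which act in hepatocytes, in 12.9% against 7.08%. HNF4, a nuclear receptor of hepatocytes (CAAAGTCCA, CAAAGTTCA or CAAAGGTCA), had its motif in 3.81% against 0.907%, and STAT factors (TTCCNNGAA) in 5.72% against 2.27%. Forkhead (TGTTTAC or TATTTAC) stood at 8.53% against 5.81%, and AP-1 (TGANTCA) at 8.62% against 5.35%. The E-box (CAGCTG or CAGATG) was in 28.4% of OS and in 24.9% of windows. The composite of an E-box part and GATA (CTG, then 8 or 9 bases, then GATA), which is known from the SCL and GATA complex of blood cells, was in 10.98% against 2.99%, and by construction it shares its bases with the GATA core. ONECUT (ATCAAT), whose bases can overlap TTATCA, was in 7.08% of OS and in 8.26% of windows. HNF1, LRH-1 (CAAGGTCA) and the full nuclear factor I motif were in 0.635%, 2.63% and 0.0907% of OS, and in 0.272%, 1.91% and 0% of windows.

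Gene-flanking OS differed from TSS-proximal OS in 7 of these motifs. Over the 45 comparisons of 15 motifs with 3 classes, 8 passed the adjusted threshold (17.8%), 7 against TSS-proximal OS and 1 against distal OS. Higher in gene-flanking OS were the E-box (by 8.89 points, 4.77 to 12.9, Fisher's exact test, adjusted p = 0.000461), nuclear factor I (by 6.82, adjusted p = 0.00108), AP-1 (by 4.32, adjusted p = 0.00428), C/EBP (by 4.13, adjusted p = 0.0455) and ONECUT (by 3.39, adjusted p = 0.0227). Lower by the same exact test were the KLF and SP motif (CCCCACCC or CCCCGCCC, 5.81% against 15.7%, adjusted p = 1.5e-09) and a part of the CTCF motif (AGGGGGC, 2.90% against 7.68%, adjusted p = 0.000229). In windows 5 kb away they stood at 3.99% and 1.81%. The KLF motif was higher than in distal OS by 2.96 points (1.01 to 4.797, Fisher's exact test, adjusted p = 0.0252). Against gene-body OS 0 of 15 motifs passed Fisher's exact test with adjustment, and 0 had an unadjusted p under 0.05. GC content differs between these classes as given above, and its part in the motif differences was not tested. The C/EBP difference fell short of the threshold when whole peaks were scanned (3.12 points, Fisher's exact test, adjusted p = 0.183).

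**Figure D3:**
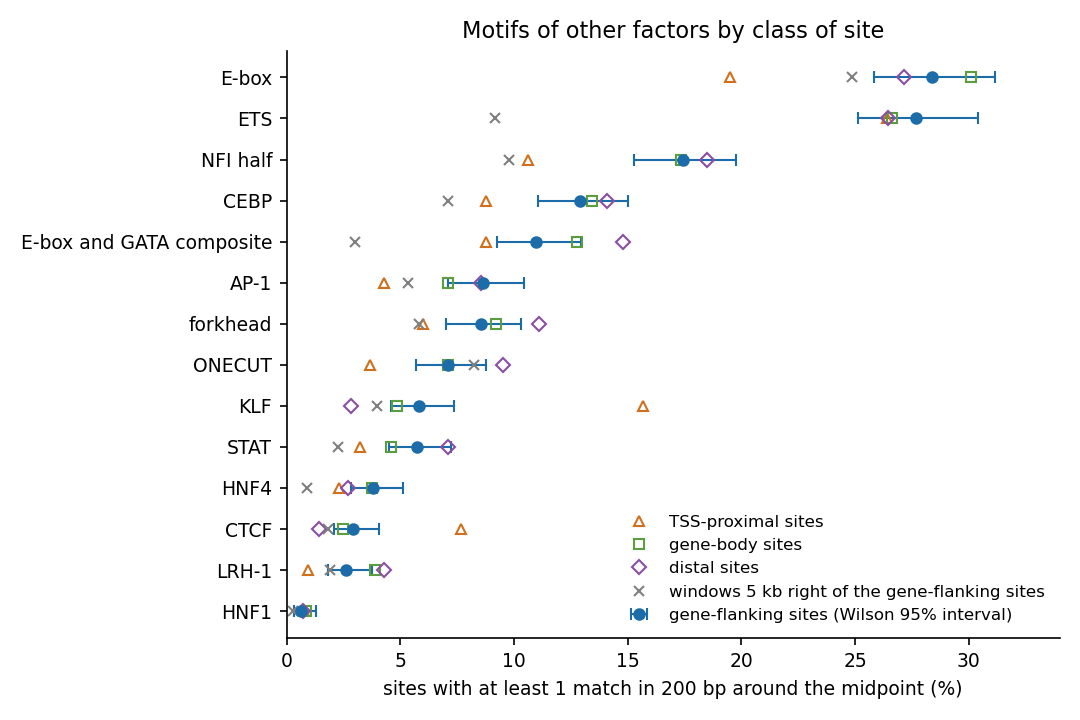
Share of OS with at least 1 match in 200 bp around the midpoint, in percent (x axis), for 14 motifs (y axis): gene-flanking OS as filled circles with Wilson 95% intervals, TSS-proximal OS as triangles, gene-body OS as squares, distal OS as diamonds and windows 5 kb to the right of the gene-flanking OS as crosses. Triangles stand apart from the circles for the KLF, CTCF, E-box and nuclear factor I motifs, while the 4 symbols for ETS lie together at 26.4% to 27.7%.

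The 1102 OS were assigned to 949 genes by the nearest TSS, 4.24% of the 22380 protein-coding genes. For 829 genes there was a single gene-flanking OS, while 96 had 2, 17 had 3, 5 had 4 and 2 had 5. A TSS-proximal OS was also present at 66 of the 949 genes (6.95%, against 2.84% of all protein-coding genes), a gene-body OS at 164 (17.3%, against 7.58%), and 734 (77.3%) had neither. Of the genes named below, Ahsg, Bhmt, Nr0b2, Slc39a14 and Cyp2a12 were among those with a TSS-proximal OS. Aass, Zfp36l1, Fbn1 and Aqp1 were among those with a gene-body OS. Each gene list below is described by its count beside the share over all genes, with no test, since the lists were made with results of these data known and genes differ in how much flanking sequence they own. OS per Mb of the list's own flanking sequence are therefore given too.

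**Figure D4:**
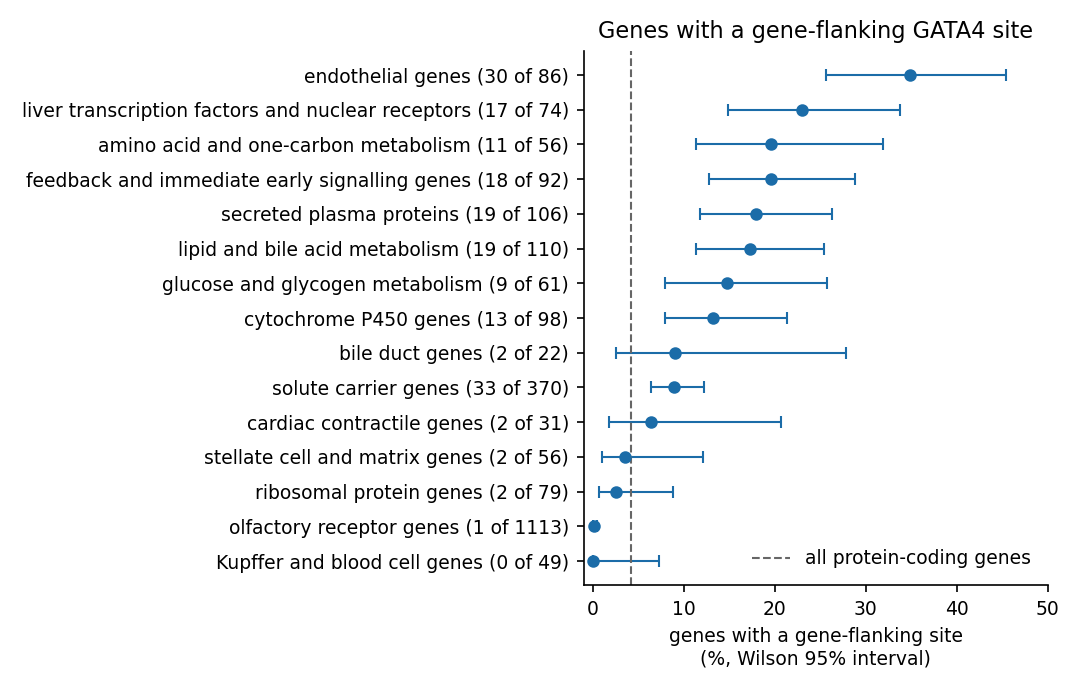
Share of genes with at least 1 gene-flanking OS in percent (x axis, Wilson 95% interval) for 15 gene lists (y axis, with the number of genes with an OS of all genes of the list). The dashed line marks all protein-coding genes, 4.24%. Endothelial genes stand at 34.9%, and the 1 of 1113 olfactory receptor genes at the other end, while the interval of the 0 of 49 Kupffer and blood cell genes reaches past the line to 7.27%.

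Endothelial genes had the highest share of the 15 lists. Of 86 genes, 30 (34.9%, Wilson 95% interval 25.7 to 45.4) had a gene-flanking OS, against 4.24% of all genes, and their flanking sequence held 14.4 OS per Mb (10.4 to 19.5), against 2.02. The high share was not particular to gene-flanking OS. A TSS-proximal OS was at 24.4% of the 86 genes, against 2.84% of all genes, and a gene-body OS at 37.2%, against 7.58%. The 42 gene-flanking OS of this list had a median number of 1983. WGATAR was in 29 of the 42, against 83.8% of all gene-flanking OS. Oit3, a gene of liver sinusoidal endothelium, had number 45, 1699 bp upstream. Egfl7, which encodes a secreted protein of growing vessels, had 2 OS led by number 216, 7965 bp upstream. Ccl2, which encodes a chemokine that draws monocytes, had number 265, 15533 bp upstream, although the body of Gm17268 was nearer, 8186 bp to the right. Ehd3, a membrane traffic gene of sinusoidal endothelium, had 4 OS led by number 330. An ETS motif was in 15 of the 42 (35.7%, 23.0 to 50.8), an interval that holds the 27.7% of all gene-flanking OS. Further examples, chosen after their values were seen, are the vessel receptor gene Tek (number 3438, 13274 bp), the cadherin gene Cdh5 (number 1996, 2070 bp), the scavenger receptor gene Stab2 (number 1635, 7581 bp) and Gata2 (number 1764, 4025 bp). Tek, Stab2 and Gata2 also had a gene-body OS, and Tek a TSS-proximal OS as well. Of the leading genes, Oit3 had an OS of both these classes, Egfl7 a TSS-proximal OS, Ccl2 a gene-body OS and Ehd3 neither.
Oit3 site 45 (chr10:58906171-58906230): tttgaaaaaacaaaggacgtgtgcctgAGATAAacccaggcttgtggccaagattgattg
Egfl7 site 216 (chr2:26427547-26427606): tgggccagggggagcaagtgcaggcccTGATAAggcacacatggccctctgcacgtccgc
Ccl2 site 265 (chr11:81833482-81833541): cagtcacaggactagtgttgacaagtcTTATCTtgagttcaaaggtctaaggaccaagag

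For the lists of other liver cell types the Wilson intervals all included the 4.24% of all genes. Kupffer and blood cell genes had 0 of 49 (up to 7.27%), and stellate cell and matrix genes had 2 of 56 (3.57%, 0.985 to 12.1). The latter were number 4053, 7858 bp upstream of the fibrillin gene Fbn1, and number 4277, 2362 bp upstream of Colec11. Bile duct genes had 2 of 22 (9.09%, 2.53 to 27.8), Bicc1 with number 641 and the water channel gene Aqp1 with 2 OS led by number 2053, 9925 bp upstream. Aqp1 was also on the endothelial list. Which cells the GATA4 signal came from was not tested here. In the study, deletion of Gata4 in hepatocytes left almost no GATA4 at the sites examined by ChIP-qPCR, also in cells of the whole liver. The study concludes that GATA4 occupied those genes in hepatocytes only. Only a few sites were examined in that way.

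Genes of hepatocyte products stood between the endothelial genes and all genes. Secreted plasma proteins had a gene-flanking OS at 19 of 106 genes (17.9%, 11.8 to 26.3) and 11.5 OS per Mb (7.45 to 17.0). Of the 106 genes, 6.60% had a TSS-proximal OS (2.84% of all genes) and 5.66% a gene-body OS (7.58%). WGATAR was in 24 of their 25 gene-flanking OS (83.8% over all gene-flanking OS) and 21 were upstream (73.6% over all). Of the motifs of hepatocyte factors, C/EBP was in 9 (36%, 20.2 to 55.5, against 12.9% over all), forkhead in 3 (12%, 4.17 to 29.96, against 8.53%), and HNF4 and ONECUT each in 2 (8%, 2.22 to 24.97, against 3.81% and 7.08%), with no test. In other lists C/EBP was in 4 of 22 lipid and bile acid, 3 of 13 amino acid and 2 of 13 cytochrome P450 OS. It was in 2 of 36 solute carrier, 1 of 18 liver transcription factor and 0 of 9 glucose OS. Besides Ahsg, the leading genes of the plasma protein list were Angptl4, an inhibitor of lipoprotein lipase (number 119, 7368 bp upstream), Sepp1, the selenium carrier of plasma (5 OS led by number 185), and A1bg (number 278, 4609 bp upstream). Alb, the albumin gene, named after its values were seen, had 2 OS led by number 2023, the nearest 21451 bp away. A1bg held a pair of WGATAR with 1 base between them.
Angptl4 site 119 (chr17:33925819-33925878): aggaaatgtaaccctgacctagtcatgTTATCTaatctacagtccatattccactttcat
A1bg site 278 (chr15:60757412-60757471): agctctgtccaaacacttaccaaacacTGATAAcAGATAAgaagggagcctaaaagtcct

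Amino acid and one-carbon metabolism had 11 of 56 genes (19.6%, 11.3 to 31.8), 13 OS and 11.7 OS per Mb (6.22 to 19.96). A TSS-proximal OS was at 7.14% of the 56 genes (2.84% of all genes) and a gene-body OS at 19.6% (7.58%). Of the 13 gene-flanking OS, 11 held WGATAR, against 83.8% of all gene-flanking OS. Bhmt, which remethylates homocysteine, had 2 OS led by number 88, 10996 bp upstream. Aass, of lysine breakdown, also had 2, led by number 733, 11271 bp upstream. Mat1a, the liver S-adenosylmethionine synthetase, had number 869, 2939 bp upstream, and Cps1, the entry enzyme of the urea cycle, number 872, 18953 bp upstream. All 4 leading OS lay upstream of their gene.
Bhmt site 88 (chr13:94418881-94418940): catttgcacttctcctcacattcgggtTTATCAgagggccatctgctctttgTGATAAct
Mat1a site 869 (chr14:41915715-41915774): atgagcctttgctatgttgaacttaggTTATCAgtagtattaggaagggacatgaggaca
Cps1 site 872 (chr1:67150555-67150614): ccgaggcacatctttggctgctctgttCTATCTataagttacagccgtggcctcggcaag

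Lipid and bile acid metabolism had 19 of 110 genes (17.3%, 11.3 to 25.4) and 7.53 OS per Mb (4.72 to 11.4). Of the 110 genes, 10% had a TSS-proximal OS (2.84% of all genes) and 17.3% a gene-body OS (7.58%). Nr0b2, the nuclear receptor SHP that lowers bile acid synthesis, had number 456, 4155 bp downstream of its TSS and 995 bp past the end of the gene. The esterase gene Ces1e had 2 OS led by number 620, 4570 bp upstream, and the fatty acid transporter gene Cd36 had number 777, 16016 bp upstream with 4 WGATAR. Cyp7a1, the rate-limiting enzyme of bile acid synthesis, named after its value was seen, had number 1391, 17456 bp away.

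Glucose and glycogen metabolism had 9 of 61 genes (14.8%, 7.96 to 25.7) and 5.67 OS per Mb (2.59 to 10.8). A TSS-proximal OS was at 6.56% of the 61 genes (2.84% of all genes) and a gene-body OS at 18.0% (7.58%). Only 3 of the 9 gene-flanking OS held WGATAR, against 83.8% of all gene-flanking OS. G6pc, the last step of glucose output, had number 472, 2847 bp upstream with 2 WGATAR, and the insulin signalling gene Irs2 had number 879, 34617 bp upstream inside a lincRNA, also with 2. Txnip, which lowers glucose uptake, had number 1230 and Pfkfb3, of glycolysis control, number 1591, both without WGATAR.
Nr0b2 site 456 (chr4:133113428-133113487): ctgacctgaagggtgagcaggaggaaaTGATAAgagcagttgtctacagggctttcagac
Cd36 site 777 (chr5:17410803-17410862): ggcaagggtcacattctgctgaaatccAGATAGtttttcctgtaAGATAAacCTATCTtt
G6pc site 472 (chr11:101226000-101226059): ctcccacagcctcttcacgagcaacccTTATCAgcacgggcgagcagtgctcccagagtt
Irs2 site 879 (chr8:11043039-11043098): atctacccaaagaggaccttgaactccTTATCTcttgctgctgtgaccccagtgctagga

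Liver transcription factors and nuclear receptors had the second highest share, 17 of 74 genes (23.0%, 14.9 to 33.7), with 7.16 OS per Mb (4.24 to 11.3). The high share was not particular to gene-flanking OS. Of the 74 genes, 10.8% had a TSS-proximal OS (2.84% of all genes) and 32.4% a gene-body OS (7.58%). Nr1d1, the clock repressor REV-ERBα, had number 371, 8000 bp upstream. Cebpa, a regulator of hepatocyte metabolism, had 2 OS, the leading one, number 1034, lying 1815 bp past the end of the gene. Nr4a3 had number 1108, 1728 bp upstream. The gene of the related factor GATA6, named after its value was seen, had number 1798 at 1060 bp from the TSS of Gata6, close to the inner limit of 1 kb. Feedback and immediate early signalling genes had 18 of 92 (19.6%, 12.7 to 28.8), with 5.52 OS per Mb (3.57 to 8.14). Among them were Smad6 (5 OS, number 314), Zfp36l1, an mRNA decay factor (2 OS, number 543), and Id2, an inhibitor of bHLH factors (number 831, 23439 bp upstream, without a GATA core).
Nr1d1 site 371 (chr11:98644591-98644650): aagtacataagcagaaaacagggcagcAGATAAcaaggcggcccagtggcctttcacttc
Cebpa site 1034 (chr7:35908715-35908774): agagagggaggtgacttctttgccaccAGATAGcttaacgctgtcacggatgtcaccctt

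Cytochrome P450 genes, many of which oxidise drugs and steroids, had 13 of 98 (13.3%, 7.92 to 21.4) and 3.92 OS per Mb (2.09 to 6.71). TSS-proximal and gene-body OS were each at 7.14% of the 98 genes, against 2.84% and 7.58% of all genes. Cyp2j5 had number 491, 1134 bp upstream, and Cyp3a11 number 929, 1511 bp upstream. Cyp2a12 had number 940, 19996 bp downstream of its TSS, and Cyp21a1 number 1313, 4292 bp upstream. WGATAR was in 12 of the 13 OS, against 83.8% of all gene-flanking OS. Solute carrier genes had 33 of 370 (8.92%, 6.42 to 12.3) and 4.03 OS per Mb (2.82 to 5.58). The iron exporter gene Slc40a1 had 2 OS led by number 72, the zinc transporter gene Slc39a14 number 212, 2164 bp upstream with 3 WGATAR, and Slc25a30 and Slc17a3 numbers 495 and 509. Ribosomal protein genes had 2 of 79 (2.53%), cardiac contractile genes 2 of 31 (6.45%, Myh7 and Actc1), and olfactory receptor genes 1 of 1113 (0.0898%). The Wilson intervals of the first and the second of these lists included 4.24%, and that of the third ended at 0.507%. For Actc1 the body of Aqr was nearer, at 1875 bp. The olfactory one was number 2671, 13182 bp downstream of the TSS of Olfr541, with Cyp2e1 46392 bp to its right.

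Smad6 and Sepp1 had the most gene-flanking OS, 5 each. Smad6 inhibits BMP signalling. Its OS lay upstream between 23294 and 44965 bp from the TSS in a stretch of 21671 bp, with the numbers 314, 561, 1169, 1953 and 2128, and every one held WGATAR. The gene also had a gene-body OS. The lines show them in this order, to let their GATA motifs and the bases around them be compared.
Smad6 site 314 (chr9:63908187-63908246): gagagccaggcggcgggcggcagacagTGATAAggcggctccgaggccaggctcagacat
Smad6 site 561 (chr9:63893133-63893192): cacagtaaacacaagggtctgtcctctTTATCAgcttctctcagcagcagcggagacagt
Smad6 site 1169 (chr9:63914784-63914843): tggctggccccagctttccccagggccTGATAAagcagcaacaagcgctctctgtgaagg
Smad6 site 1953 (chr9:63898525-63898584): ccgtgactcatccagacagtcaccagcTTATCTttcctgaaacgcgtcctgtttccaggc
Smad6 site 2128 (chr9:63903030-63903089): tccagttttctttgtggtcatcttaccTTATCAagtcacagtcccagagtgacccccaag
Forms of the motif and strands differed among them, with TGATAA on the plus strand at numbers 314 and 1169, TGATAA on the minus strand at 561 and 2128, and AGATAA on the minus strand at 1953. GC content ranged from 48% at number 1953 to 73% at number 314.

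The 5 OS of Sepp1 lay upstream between 17347 and 41786 bp in a stretch of 24439 bp, with the numbers 185, 1054, 1809, 2138 and 3550. All 5 held WGATAR, and no OS was in the gene or within 1 kb of its TSS. Sepp1 was the first protein-coding gene of its chromosome in this annotation, so no gene lay on the other side.
Sepp1 site 185 (chr15:3197626-3197685): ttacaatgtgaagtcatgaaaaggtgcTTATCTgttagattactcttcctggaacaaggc
Sepp1 site 1054 (chr15:3176724-3176783): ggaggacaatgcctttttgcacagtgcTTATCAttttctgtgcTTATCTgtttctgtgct
Sepp1 site 1809 (chr15:3182646-3182705): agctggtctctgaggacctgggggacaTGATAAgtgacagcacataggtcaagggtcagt
Sepp1 site 2138 (chr15:3201199-3201258): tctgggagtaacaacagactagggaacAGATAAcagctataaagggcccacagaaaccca
Sepp1 site 3550 (chr15:3178167-3178226): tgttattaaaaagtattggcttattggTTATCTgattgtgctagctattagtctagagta
GC content was 42.0% to 50.5% at these OS, a range that met the Smad6 range only at its lowest part.

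The other 5 genes named for their number of OS had 4 each. Gpr116, an adhesion receptor gene of the endothelial list, had all 4 upstream from 10472 to 23887 bp, led by number 382, and 3 held WGATAR. Srsf5, a splicing factor gene, had 4 upstream from 13885 to 35698 bp, all with WGATAR, led by number 303. The OS of Ehd3 were on both sides of the gene, 2 upstream at 18157 and 33581 bp and 2 downstream at 34807 and 40939 bp. St3gal1, a sialyltransferase gene, had 3 upstream and 1 downstream, led by number 230. The 4 OS of 1700021A07Rik also stood on both sides, from 4708 to 19199 bp, and their numbers ran only from 1808 to 2518. None of these 5 genes had a TSS-proximal or gene-body OS.

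**Figure D5:**
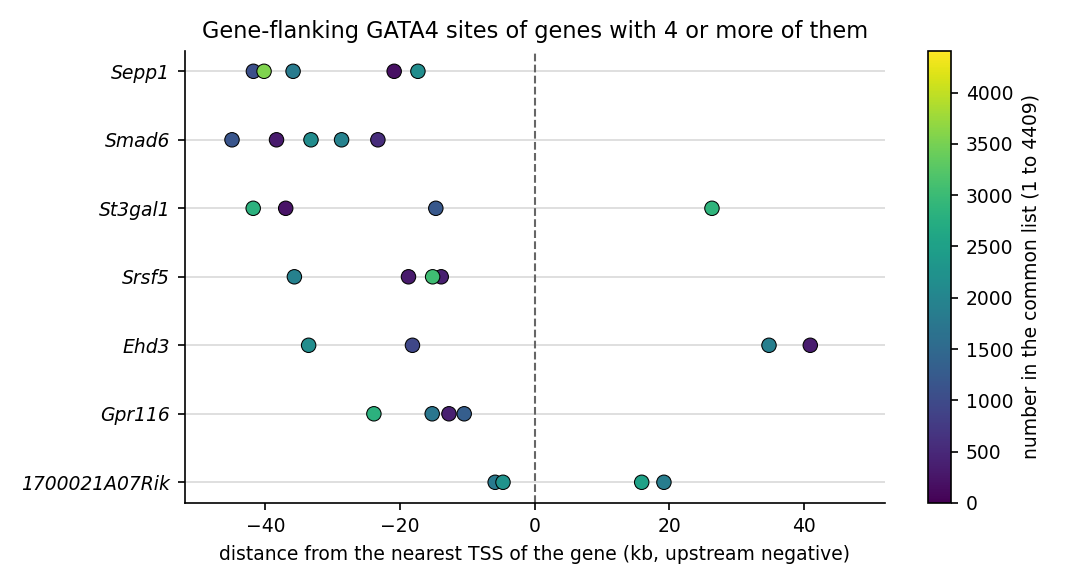
Gene-flanking OS of the 7 genes with 4 or more of them (y axis) by distance from the nearest TSS of the gene in kb (x axis, upstream negative), coloured by the number in the common list (1 to 4409). The OS of Smad6, Sepp1, Gpr116 and Srsf5 are all upstream, while those of Ehd3, St3gal1 and 1700021A07Rik lie on both sides.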

How the data were processed

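GATA4 ChIP-seq and input DNA of whole liver were analysed from peak lists, of which the input has none of its own. Before depositing, the authors aligned reads to mm9 with bowtie (version 0.12.7 per the labels), discarded reads without a unique place, ran MACS2 (2.0.10) and a modified SPP against pooled input, kept peaks reproducible between replicates (IDR) and intersected both lists with bedtools (2.16.1). The common list keeps SPP coordinates. The deposited score of each peak is 1000 and was not used, and the number in the peak name took its place, although tests on scores had been planned. The lists hold 4811 SPP, 5867 MACS2 and 4409 common peaks. No read depth is in them, so depth enters no interval. Intervals of shares and densities cover counting error only, and those of differences in means the spread between sites. The p-values set a difference against the variation between sites of 1 pooled sample, not between mice.

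Sites were classed by midpoint against GENCODE M1 and read from NCBI Build 37, the same build as mm9, with coordinates counted from 1. Classes were compared by Fisher's exact test (two-sided, Newcombe intervals) or a two-sided permutation test of means (100000 resamples, seed 1, normal intervals), each adjusted by Benjamini-Hochberg over 3 classes, or over 45 motif comparisons, at 0.05. Sites sharing a neighbourhood are not independent. Named are the first 10 gene-flanking sites, the genes of each list whose sites come first (up to 4), genes with 4 or more sites, the first site without a GATA core, the site with the most WGATAR and those nearest to the limits. Printed sequences leave out chromosome 18 and run 60 bases around a motif or over a whole site. Some sites that this rule names are not reported here. Members and lists were chosen with earlier results of these data known. There were 62 alternatives, on gene models, limits, lists, scanned stretch, overlap and near neighbours. Scripts were tested on simulated data and used Python (3.11.15) and its packages matplotlib (3.10.9), pandas (2.3.3), scipy (1.17.1) and numpy (2.4.6). RefSeq promoter and miRNA tables of another build were not used here.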

Additional observations from a re-analysis of the deposited data

How the results depend on the processing

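No paired analysis was possible because the lists cover 1 pooled ChIP sample with no replicate columns. Masking of repeats was not run, since the reference sequence carries no masking, and 1 site per group of neighbours gives no share with a neighbour by construction. Depth per site is unknown, and so weak sites cannot be weighted. The WGATAR difference from TSS-proximal sites kept its direction and its side of the threshold under all 7 alternatives (6.13 to 14.0 points), and the GC differences under all 4. Of the other counts and shares, the number of sites was 403 and that of genes 383 with an outer limit of 10 kb, where 9.14% of the list and a WGATAR share of 80.6% resulted. The share of the list was 27.5% with all genes of the annotation, 32.5% with an outer limit of 100 kb and 20.1% with an inner limit of 5 kb. The WGATAR share was 92.3% in the wider peaks of the MACS2 list, 76.0% in the central 100 bp, 90.9% in a wider stretch around the midpoint than 200 bp, 93.4% for WGATA or GATAR and 88.7% in the leading part of the list up to number 2204. The number of bases scanned or letters to match changed by construction in the central 100 bp, the wider stretch and WGATA or GATAR. The MACS2 list changed both the sites and the width, and at an equal 200 bp its gene-flanking peaks held WGATAR in 70.2%, against 85.2% of those of the SPP list. Midpoints also differ between these lists, so the 200 bp are not centred alike. The causes of this difference and of the value in the leading part were not tested.

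The differences that turned or crossed the threshold were mostly small, and their causes were not tested. For WGATAR against distal sites the difference turned to 0.419 points in the central 100 bp, 0.915 for WGATA or GATAR, 1.54 in the leading part of the list and 0.108 with 1 site per group of neighbours. List position against distal sites turned to 27.7 among peaks of 320 bp and stood at -174 in the MACS2 list (permutation test, adjusted p = 0.0246). Against TSS-proximal sites it was -134 at 320 bp and 44.4 in the MACS2 list, and against gene-body sites -41.5 at 320 bp. The share of SPP peaks met by MACS2 at a reciprocal overlap of at least 50% turned to 5.57 points against TSS-proximal (Fisher's exact test, adjusted p = 0.00369) and -2.50 against gene-body sites. For another site nearby, the difference from gene-body sites was 0.483 points with the longest transcript of each gene, 1.09 within 5 kb and 3.33 within 50 kb. From distal sites it was 1.26 within 5 kb and 6.80 within 50 kb (Fisher's exact test, adjusted p = 0.00768), and from TSS-proximal sites 3.08 within 5 kb. Widths of the MACS2 peaks differed by -159 bp from TSS-proximal (permutation test, adjusted p = 3e-05) and by 23.4 bp from gene-body sites (adjusted p = 0.0382). Of the motif comparisons 12 passed in the wider stretch and 4 in the leading part of the list, where those of C/EBP, ONECUT and the nuclear factor I motif TTGGCA with TSS-proximal and of KLF with distal sites no longer did. The C/EBP comparison also fell short in whole peaks and in the wider stretch.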

Other observations

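The MACS2 list held 1434 peaks that met the same rule of position, and 346 of them touched no SPP peak and so are not among the common sites. WGATAR was present in 200 bp around the midpoint of 222 of these 346 (64.2%, Wilson 95% interval 59.0 to 69.0), against 28.6% of windows 5 kb to their right. In the 1088 gene-flanking MACS2 peaks that met an SPP peak the share was 72.1% (69.3 to 74.6). Of the 1194 gene-flanking SPP peaks, 92 touched no MACS2 peak. In the same 200 bp, 72 of these held WGATAR (78.3%, 68.8 to 85.5), against 85.2% of all 1194. The MACS2 peaks are wider and have other midpoints, so their shares and those of SPP peaks are not over like stretches.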
